A study of Rattus norvegicus with 24 samples.

Results

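Tachykinins are short neuropeptides. The genes described here are Tac1 and Tac3, which encode them, and Tacr1 and Tacr3, which encode receptors for them. They were identified by the array annotation, as every probe set naming only that gene under its current symbol or an older synonym (Tac3 is called Tac2 on the array). This gave 4 of 16582 genes and 26 of the 172924 probe sets that name 1 gene, with 7 probe sets for Tac1, 7 for Tac3, 7 for Tacr1 and 5 for Tacr3. Tac4, a further peptide gene, was listed apart, and the receptor gene Tacr2 was not analysed here.

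Transcript levels were measured in punches of lateral striatum (2 by 2 mm) and of substantia nigra (0.5 by 1.5 mm) from 14 adult male Sprague Dawley rats, with 24 arrays in 8 groups of 3. Dyskinetic and non-dyskinetic rats received 2 injections of 6-hydroxydopamine (6-OHDA), a toxin that destroys dopamine neurons, into 1 side of the brain, and then daily levodopa, the dopamine precursor used against Parkinson's disease. The dyskinetic rats had developed the involuntary movements called levodopa-induced dyskinesia, as rated over 7 sessions. Vehicle rats had the same toxin injections and were given saline in place of levodopa. Intact rats had a sham injection without toxin and were given levodopa. Dosing began 3.5 weeks after the lesion, and a lesion counted as successful when striatal dopamine had dropped by more than 90%. No group was both intact and free of levodopa, the dyskinetic and non-dyskinetic groups were split by the behaviour itself, and neither the side punched, the dose nor the time since the last dose was given. Both tissues came from 10 of the rats and a single tissue from 4.

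Tac1 encodes the precursor of substance P and neurokinin A, and in the striatum it is a product of the direct-pathway projection neurons, which carry the D1 dopamine receptor and send their axons to the nigra. Tac3 encodes neurokinin B. Tacr1 encodes the NK1 receptor, which prefers substance P and in the striatum is known from cholinergic and somatostatin interneurons. Tacr3 encodes the NK3 receptor, which prefers neurokinin B and in the nigra is known from dopamine neurons. Both receptors couple to Gq proteins, which activate phospholipase C and calcium release.

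Values are log2 levels, and a difference of 1 on this scale is a doubling. The value after ± is the SD of 3 arrays beside a group mean and the standard error of the fitted difference beside a difference. A difference passed where its p, adjusted over all 12436 genes tested in the tissue, was under 0.05 in limma. All 4 genes lay above the filter that left out the dimmest 25% of genes in each tissue. In the nigra Tac3 was dim, with the mean of its probe sets at the 27.6th percentile of all genes. With 3 arrays a group, precision is limited by that number.

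The tissue labels were borne out by markers. The summed level of 6 striatal projection neuron markers (without Drd2, which dopamine neurons also make) was 14.26 to 14.51 on striatal arrays and 11.25 to 12.38 on nigral arrays. The summed level of 9 dopamine neuron markers was 9.67 to 10.03 in striatum and 12.27 to 15.15 in nigra. A pair of nigral vehicle arrays stood apart. Vehicle array 1 was high in striatal genes, with Rgs9 at 9.66 against 7.64 and 7.84 on the others of its group, and its sum of the 6 markers was 12.38 against 11.37 and 11.42. Vehicle array 3 was high in the cortical gene Slc17a7, at 9.76 against 6.38 and 6.26. Counts, tests or median differences for the nigral vehicle group are therefore also given without both arrays, where the remaining vehicle array is assumed to vary like the other groups. Within a tissue no pair of arrays correlated beyond 0.987, so none was counted as a repeat of another. Array medians ran from 7.9001 to 7.9787 in striatum and from 8.2054 to 8.3165 in nigra.

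Of the 4 genes, 3 have an entry in the RefSeq promoter table for rat assembly GRCr8. Their 250 bases before the table's start are printed for a gene that changed in striatum (Tac1), a gene that changed in nigra (Tacr3) and a gene that passed in no comparison between groups (Tacr1). Capitals mark TGACG or its reverse complement, which is the core of the binding site of CREB-type factors, and the TATA box letters TATAAA.
Tac1, chr4:36645333-36645582, plus strand: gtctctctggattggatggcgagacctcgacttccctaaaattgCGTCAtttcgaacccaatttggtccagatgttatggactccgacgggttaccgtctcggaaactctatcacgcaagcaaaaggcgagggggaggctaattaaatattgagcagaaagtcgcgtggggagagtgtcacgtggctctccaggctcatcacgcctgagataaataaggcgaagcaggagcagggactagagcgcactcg
Tacr3, chr2:225940247-225940496, plus strand: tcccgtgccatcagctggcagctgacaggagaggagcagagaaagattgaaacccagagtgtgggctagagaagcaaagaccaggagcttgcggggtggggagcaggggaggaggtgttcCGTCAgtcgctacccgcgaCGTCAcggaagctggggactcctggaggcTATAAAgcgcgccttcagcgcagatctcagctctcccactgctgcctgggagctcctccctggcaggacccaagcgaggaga
Tacr1, chr4:116478367-116478616, plus strand: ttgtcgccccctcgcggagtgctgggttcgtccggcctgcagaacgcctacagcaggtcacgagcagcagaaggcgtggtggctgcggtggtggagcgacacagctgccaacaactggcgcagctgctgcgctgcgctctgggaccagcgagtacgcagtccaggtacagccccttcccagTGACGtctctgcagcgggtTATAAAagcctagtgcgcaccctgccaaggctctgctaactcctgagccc

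Windows of 300 bases, from 250 before to 50 after the start, were searched on both strands. The table's start of Tac1 lies inside the gene record given below, whose lowest coordinate is 36645344, so 239 of the 250 bases printed for Tac1 belong to that record. For Tacr1 and Tacr3 it is 0 of the 250. TGACG occurred once for Tac1, 206 to 202 bases before the table's start and inside the gene record, and once in front of Tacr1, 69 to 65 bases before it. Tacr3 had it at 130 to 126 and at 111 to 107 bases before the start. TATAAA stood 82 to 77 bases before the Tacr3 start and 50 to 45 bases before the Tacr1 start. Of 33469 promoters of this length, 21.2% hold TGACG and 14.2% TATAAA. Neither the full site TGACGTCA (1.83% of promoters), which contains TGACG, nor the AP-1 site TGANTCA (7.33%) was among the letters of the 3 windows. The matches describe the letters and show no binding. On the same assembly the gene of Tac1 spans chromosome 4 from 36645344 to 36653548, Tac3 chromosome 7 from 65447817 to 65454427, Tacr1 chromosome 4 from 116478617 to 116647492 and Tacr3 chromosome 2 from 225940497 to 226037756.

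In intact rats the peptide genes and Tacr1 were higher in striatum and Tacr3 was higher in nigra. Tac1 was higher in striatum by 4.19 ± 0.18 (adjusted p = 3.58e-15), Tac3 by 2.85 ± 0.11 (adjusted p = 7.8e-16) and Tacr1 by 1.91 ± 0.12 (adjusted p = 5.91e-12). Tacr3 ran the other way, with striatum minus nigra at -2.65 ± 0.20 (adjusted p = 8e-11). So 4 of the 4 genes passed, where 74.2% of 12114 genes did. With each array centred on its median, these differences were 4.515, 3.175, 2.233 and -2.319, since nigral arrays have the higher medians. Over the 8 groups, every striatal array lay above every nigral array for Tac1, Tac3 and Tacr1. For Tacr3 this order held in reverse for the intact rats, and the tissues were closer in the lesioned groups. In both tissues the mean of Tac3 was lowest in intact rats, and in striatum it was highest in dyskinetic rats. The mean of nigral Tacr3 was highest in intact rats, as the plot of levels by array shows.

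**Figure D1:**
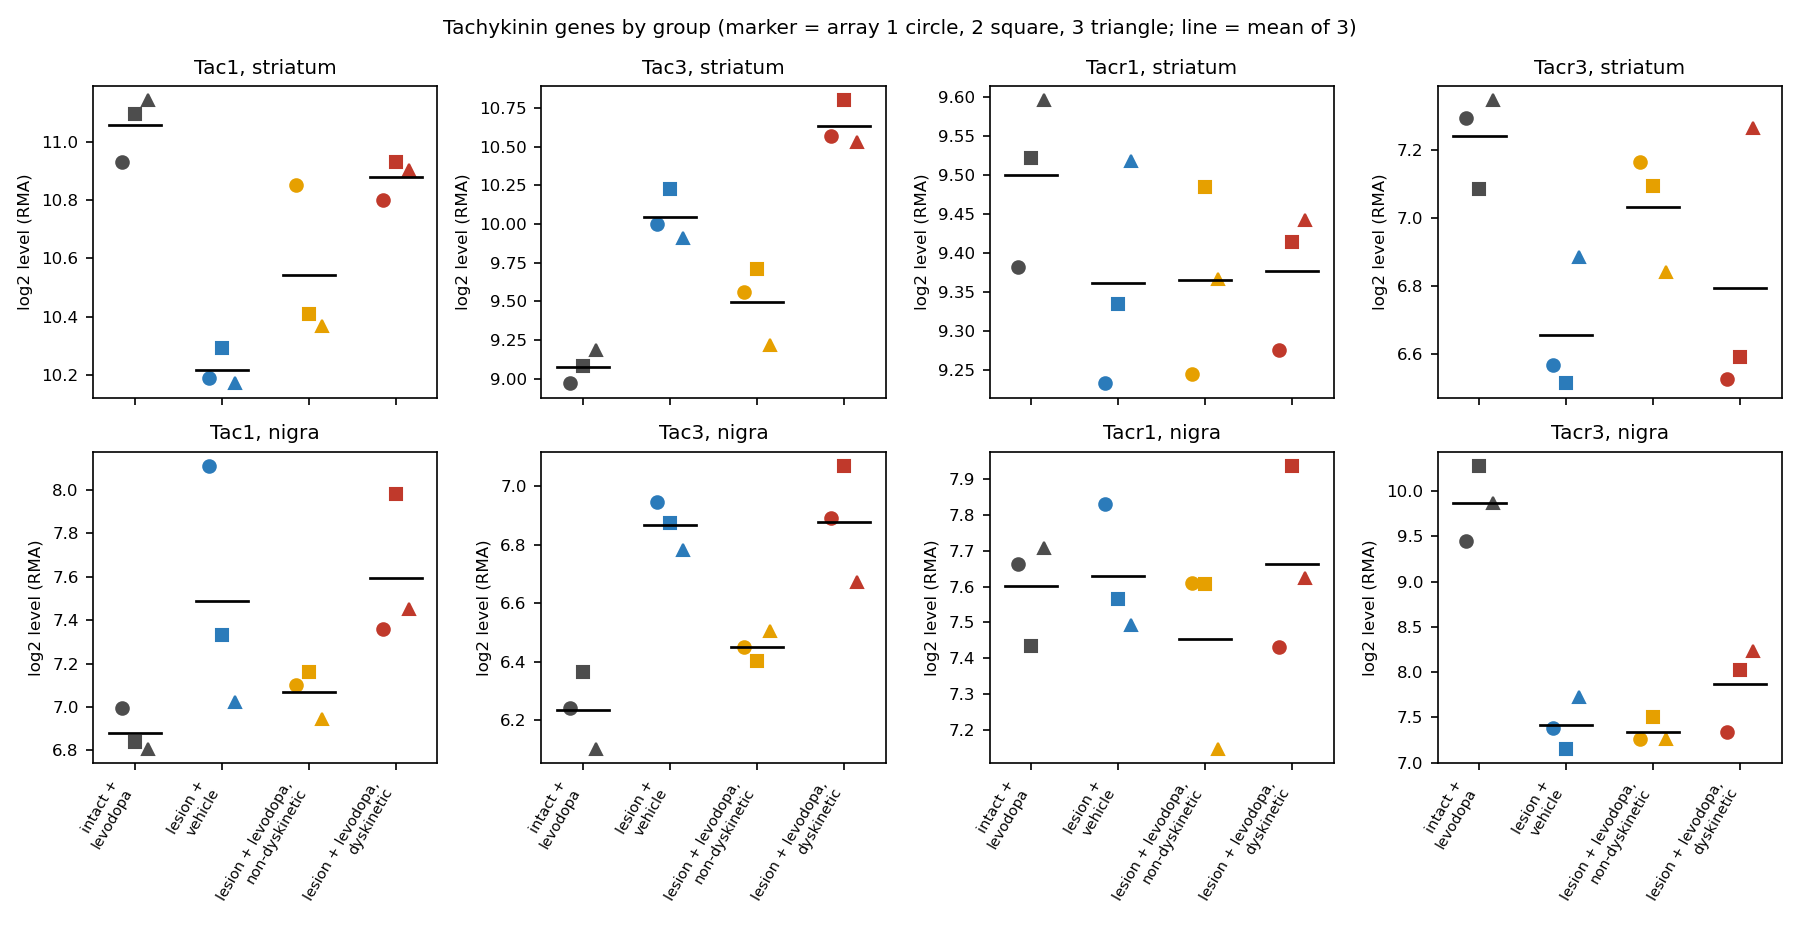
Log2 level (RMA) of Tac1, Tac3, Tacr1 and Tacr3 on each of 12 striatal (upper row) and 12 nigral (lower row) arrays, by group; symbols are the arrays, bars the mean of 3, and each panel has its own range. Striatal Tac3 runs from 8.97 to 9.18 in intact and from 10.53 to 10.80 in dyskinetic rats, and nigral Tacr3 from 9.45 to 10.28 in intact rats against 7.15 to 8.23 in the lesioned groups.

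Striatal Tac3, the neurokinin B gene, separated the 4 groups. Its level was 10.57, 10.80 and 10.53 on the dyskinetic arrays (mean 10.63 ± 0.15, n = 3) and 10.00, 10.23 and 9.91 on the vehicle arrays (mean 10.05 ± 0.16, n = 3). It was 9.56, 9.71 and 9.22 on the non-dyskinetic arrays (mean 9.50 ± 0.25, n = 3) and 8.97, 9.08 and 9.18 on the intact arrays (mean 9.08 ± 0.11, n = 3). No group overlapped another, so that each lesioned group lay above intact and the dyskinetic rats lay above both other lesioned groups.

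Non-dyskinetic rats had the same toxin injections and drug as dyskinetic rats. Against them, striatal Tac3 was higher in dyskinetic rats by 1.14 ± 0.12, or 2.20-fold (adjusted p = 6.62e-05). In the nigra, 9 dopamine neuron markers differed by a median of -0.51 (dyskinetic minus non-dyskinetic), and their part was not tested. Tac3 was 1 of the 4 genes past the threshold in this striatal comparison, where 5.26% of all genes passed. The groups did not overlap for 23.6%. Against vehicle, Tac3 rose in dyskinetic rats by 0.59 ± 0.12, or 1.50-fold (adjusted p = 0.00886), and Tac1 passed as well, so 2 of the 4 genes passed beside 5.18% of all genes. The groups did not overlap for either, as for 23% of all genes. Against intact rats Tac3 was higher in dyskinetic rats by 1.56 ± 0.12, or 2.94-fold (adjusted p = 2.01e-06), and it was the 1 gene of the 4 that passed, beside 10.3% of all genes. The groups did not overlap for Tac3, as for 33.3% of all genes. The comparison with vehicle was lost when dyskinetic array 2 was left out (0.51, adjusted p = 0.0574, in a range of 0.0028 to 0.0574 over 16 alternatives). These comparisons share their dyskinetic arrays.

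In striatum the peptide genes differed in opposite directions between vehicle and intact rats. These groups differ in both lesion and levodopa, which cannot be told apart here. In vehicle against intact rats Tac3 was higher by 0.97 ± 0.12, or 1.96-fold (adjusted p = 0.00129), and Tac1 was lower, with a difference of -0.84 ± 0.11, or 1.79-fold (adjusted p = 0.00159). Both passed, 2 of the 4 genes, while 0.442% of all genes did and the groups of 14.8% of genes did not overlap. By size of difference Tac1 was the 2nd lowest and Tac3 the 13th highest of 12436 genes. A punch pools many cells, so fewer cells of a type and less RNA per cell cannot be told apart here or below. The summed level of the 6 projection neuron markers was 14.34 to 14.37 in vehicle and 14.43 to 14.51 in intact striatum, and 1 of the 7 markers on the full list was lower and none higher in this comparison. Its part in the result was not tested.

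Non-dyskinetic rats lay between vehicle and intact rats for both peptide genes, and no tachykinin gene passed against either. Against vehicle the difference was -0.55 ± 0.12 for Tac3 (adjusted p = 0.191) and 0.33 ± 0.11 for Tac1 (adjusted p = 0.606), beside 0.0322% of all genes passing. Against intact it was 0.42 ± 0.12 for Tac3 (adjusted p = 0.414) and -0.51 ± 0.11 for Tac1 (adjusted p = 0.192), beside 0.0482% of all genes. At an unadjusted p under 0.05, 3 of the 4 genes passed against vehicle and 2 against intact, where 6.7% and 8.56% of all genes did. The arrays did not overlap in either comparison for either peptide gene, as for 10% of all genes against vehicle and 14.5% against intact. The difference for Tac1 against intact passed once non-dyskinetic array 1 was left out (-0.67, adjusted p = 0.0247, in a range of 0.0247 to 0.842 over 16 alternatives).

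Striatal Tac1, the substance P gene, was lowest in vehicle rats. It stood at 10.19, 10.29 and 10.17 on the vehicle arrays (mean 10.22 ± 0.07, n = 3) and at 10.93, 11.10 and 11.14 on the intact arrays (mean 11.06 ± 0.11, n = 3). The dyskinetic arrays read 10.80, 10.93 and 10.90 (mean 10.88 ± 0.07, n = 3), all above vehicle. The highest lay just under the lowest intact array, so these groups did not overlap, as for 33.3% of all genes. The non-dyskinetic arrays read 10.85, 10.41 and 10.37 (mean 10.54 ± 0.27, n = 3), so that array 1 lay among the dyskinetic arrays and the others below them.

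Tac1 was higher in dyskinetic than in vehicle rats by 0.66 ± 0.11, or 1.58-fold (adjusted p = 0.00196). Dyskinetic and intact rats differed by -0.18 ± 0.11 (95% interval -0.41 to 0.06, adjusted p = 0.34). Dyskinetic and non-dyskinetic rats differed by 0.34 ± 0.11 (adjusted p = 0.0937), which did not pass. Without non-dyskinetic array 1 this difference was 0.49 with adjusted p = 0.004, in a range of 0.004 to 0.287 over 16 alternatives. In the plane of both peptide genes the dyskinetic arrays were thus high in both, the vehicle arrays low in Tac1 and the intact arrays low in Tac3.

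**Figure D2:**
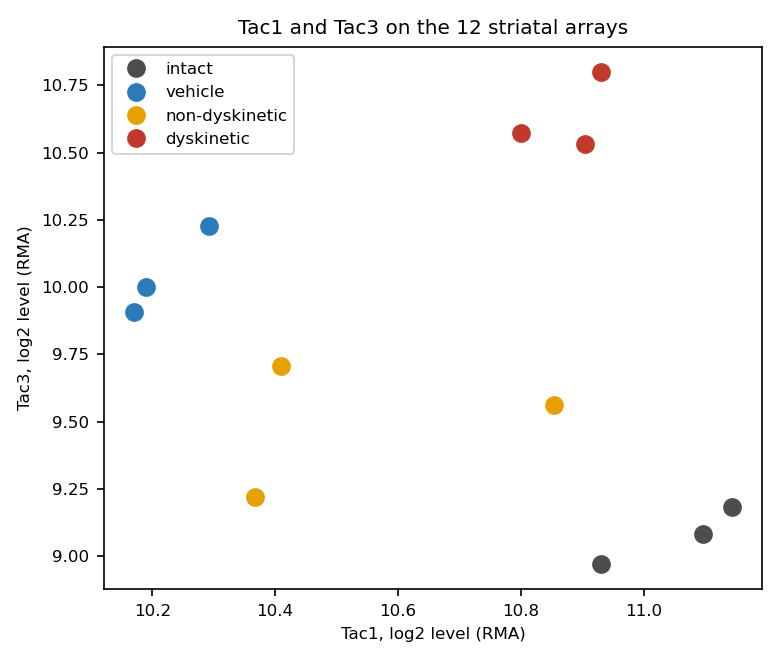
Log2 level (RMA) of Tac3 against that of Tac1 on the 12 striatal arrays, 1 point per array, coloured by group. The 3 dyskinetic arrays lie above 10.5 for Tac3 and at 10.80 to 10.93 for Tac1, the vehicle arrays lie at 10.17 to 10.29 for Tac1, and the intact arrays lie at 8.97 to 9.18 for Tac3.

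The probe sets of a gene read different stretches of its transcript from the same RNA, so they show how evenly a difference runs along the gene and are not replicates. All 7 probe sets of Tac3 passed in dyskinetic against intact striatum, with differences from 0.83 to 1.99, where 0.911% of all probe sets passed. Against non-dyskinetic rats 5 of the 7 passed, with all 7 positive at 0.65 to 1.42, beside 0.228% of all probe sets. In vehicle against intact striatum none passed after adjustment over 172924 probe sets, as 0.00347% of them did. There the 7 Tac3 differences ran from 0.54 to 1.20, and all 7 had an unadjusted p under 0.05. The 7 Tac1 differences ran from -1.14 to -0.26, and 6 of the 7 had an unadjusted p under 0.05. In dyskinetic against vehicle striatum none of the 7 probe sets of either gene passed, beside 0.384% of all probe sets, with differences from 0.29 to 0.84 for Tac3 and from 0.29 to 0.93 for Tac1. There 7 of the 7 Tac3 and 6 of the 7 Tac1 probe sets had an unadjusted p under 0.05.

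**Figure D3:**
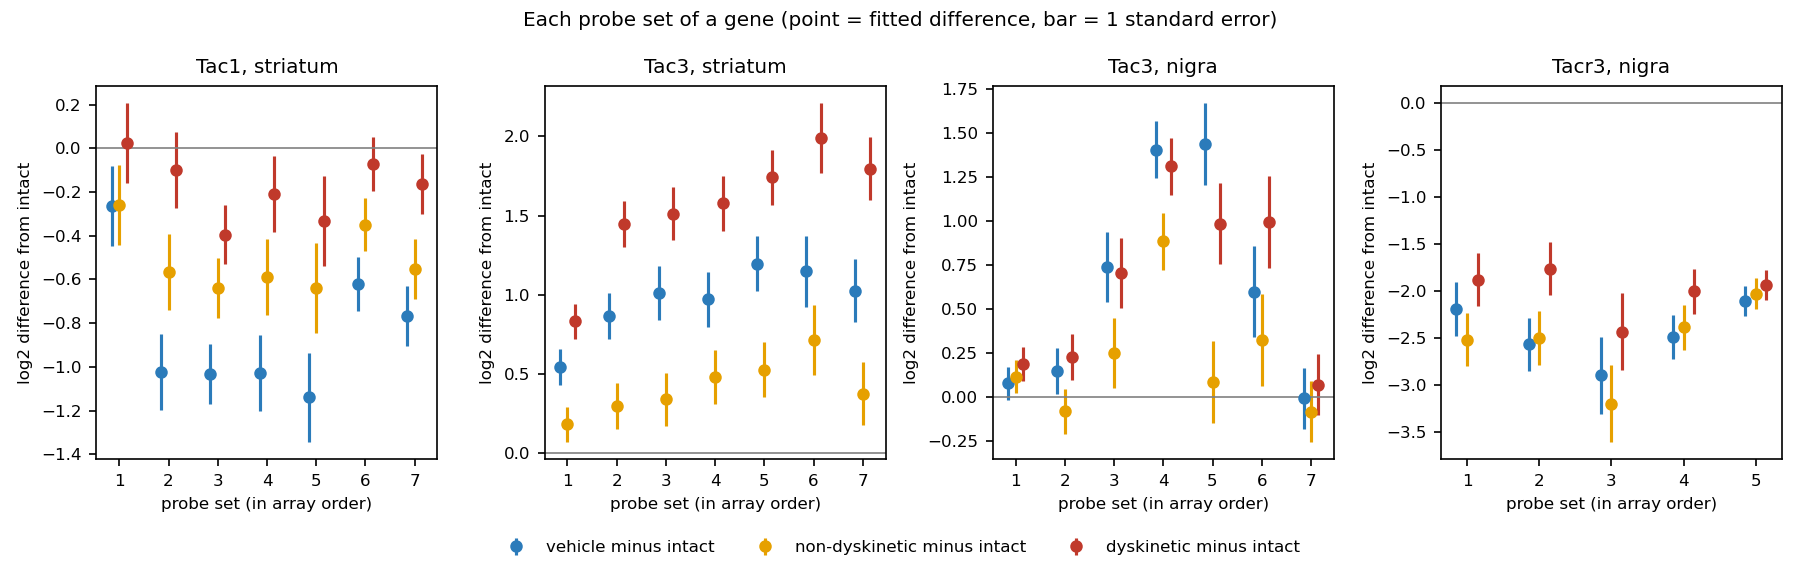
Log2 difference from intact rats for each probe set of Tac1 and Tac3 in striatum and of Tac3 and Tacr3 in nigra, with bars of 1 standard error; colours are the lesioned groups and the axes differ between panels. All 7 probe sets of striatal Tac3 are positive and all 5 of nigral Tacr3 negative in each group, whereas nigral Tac3 has its differences on some probe sets.

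The receptor genes passed in no striatal comparison. Tacr1, the NK1 receptor gene, was 9.28, 9.41 and 9.44 in dyskinetic, 9.24, 9.48 and 9.37 in non-dyskinetic, 9.23, 9.33 and 9.52 in vehicle and 9.38, 9.52 and 9.60 in intact striatum. The ranges of all groups overlapped. Its 6 differences ran from -0.14 to 0.02, their 95% intervals together reached from -0.34 to 0.21, and the adjusted p ran from 0.45 to 0.995. Among markers of the interneurons known to carry Tacr1, the cholinergic gene Chat was lower in dyskinetic than in vehicle rats, at -0.52 ± 0.11 (adjusted p = 0.0077). It was 1 of 5 cholinergic markers tested, beside 5.18% of all genes. In any striatal comparison, 0 of 3 somatostatin interneuron markers passed.

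Tacr3, the NK3 receptor gene, was dim in striatum, at the 36.5th percentile of all genes. It read 6.53, 6.59 and 7.26 in dyskinetic, 7.16, 7.09 and 6.84 in non-dyskinetic, 6.57, 6.51 and 6.89 in vehicle and 7.29, 7.08 and 7.35 in intact rats. The vehicle arrays lay below the intact arrays without overlap, as for 14.8% of all genes, and the difference did not pass (-0.58 ± 0.16, adjusted p = 0.228). Dyskinetic array 3 lay among the intact arrays while the others of its group lay below. The difference between dyskinetic and intact rats was -0.45 ± 0.16 (adjusted p = 0.0984). Without dyskinetic array 3 it was -0.68 (adjusted p = 0.00309, in a range of 0.00309 to 0.555 over 14 alternatives), and that between dyskinetic and non-dyskinetic rats, otherwise -0.24, was -0.47 (adjusted p = 0.0458, in a range of 0.0458 to 0.99).

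In the nigra Tacr3 was lower in every lesioned group than in intact rats. Its level was 9.45, 10.28 and 9.87 on the intact arrays (mean 9.87 ± 0.41, n = 3). It was 7.34, 8.02 and 8.23 on the dyskinetic (mean 7.86 ± 0.47, n = 3), 7.26, 7.51 and 7.26 on the non-dyskinetic (mean 7.34 ± 0.14, n = 3) and 7.38, 7.15 and 7.73 on the vehicle arrays (mean 7.42 ± 0.29, n = 3). All 9 lesioned arrays lay below the lowest intact array, and the lesioned groups overlapped each other. Groups did not overlap for 40.1% of all genes in dyskinetic, 23.9% in non-dyskinetic and 32.7% in vehicle against intact nigra.

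The difference of Tacr3 from intact was -2.00 ± 0.23 in dyskinetic rats, or 4.004-fold lower (adjusted p = 0.000136). There 3 of the 4 tachykinin genes passed, beside 16.1% of all genes. In non-dyskinetic rats it was -2.52 ± 0.23, or 5.75-fold lower (adjusted p = 0.000129), the lowest of all 12436 differences in that comparison, and Tacr3 was the 1 gene of the 4 that passed, beside 4.7% of all genes. In vehicle rats it was -2.45 ± 0.23, or 5.45-fold lower (adjusted p = 3.05e-05), the 14th lowest, and 2 of the 4 genes passed, beside 12.8% of all genes. These comparisons share the intact arrays. All 5 probe sets of Tacr3 passed as lower in each, from -2.43 to -1.76 in dyskinetic, from -3.20 to -2.03 in non-dyskinetic and from -2.89 to -2.10 in vehicle rats, where 4.02%, 0.659% and 1.76% of all probe sets passed. Without vehicle arrays 1 and 3, 3 of the 5 probe sets passed for vehicle, all 5 being negative at -3.42 to -2.20, beside 0.385% of all probe sets. The vehicle difference of the gene was then -2.72 (adjusted p = 0.000649, the highest over 17 alternatives, of which the lowest was 2.82e-06).

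Markers of dopamine neurons, the nigral cells known to carry Tacr3, were also lower in the lesioned groups than in intact rats. All 9 passed as lower in dyskinetic and in vehicle rats, beside 16.1% and 12.8% of all genes. In non-dyskinetic rats 8 of 9 did, beside 4.7%, and Slc6a3, the dopamine transporter gene, had -1.30 (adjusted p = 0.06). Their median difference from intact was -1.75 in dyskinetic, -1.30 in non-dyskinetic and -2.62 in vehicle rats, against -0.0158, 0.00167 and -0.00361 for all genes. Th, which encodes tyrosine hydroxylase of the dopamine synthesis pathway, differed by -1.97 ± 0.30 (adjusted p = 0.000943), -1.15 ± 0.30 (adjusted p = 0.0481) and -2.62 ± 0.30 (adjusted p = 0.000138). Slc18a2, the vesicular monoamine transporter, differed by -2.83, -1.97 and -3.31, and Ddc, which makes dopamine from levodopa, by -2.02, -1.51 and -2.68. Without vehicle arrays 1 and 3 the median difference of the 9 markers in vehicle rats was -2.52.

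The markers and Tacr3 did not run in the same order over the lesioned groups. Non-dyskinetic rats had the highest summed marker level of these groups, at 13.89, 13.76 and 13.49, and a Tacr3 level of at most 7.51. The sum was 12.53, 12.71 and 13.62 on the dyskinetic arrays, with the highest Tacr3 level of 8.23 on the array with the highest sum, and 12.87, 12.65 and 12.27 on the vehicle arrays. The intact arrays had sums of 14.93, 15.15 and 14.98. Between the levodopa-treated lesioned groups Tacr3 differed by 0.52 ± 0.23 (adjusted p = 0.327), and the 9 markers by a median of -0.51. Of the markers 1 was lower past the threshold, beside 0.241% of all genes. The part of dopamine neurons in the Tacr3 difference was not tested.

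**Figure D4:**
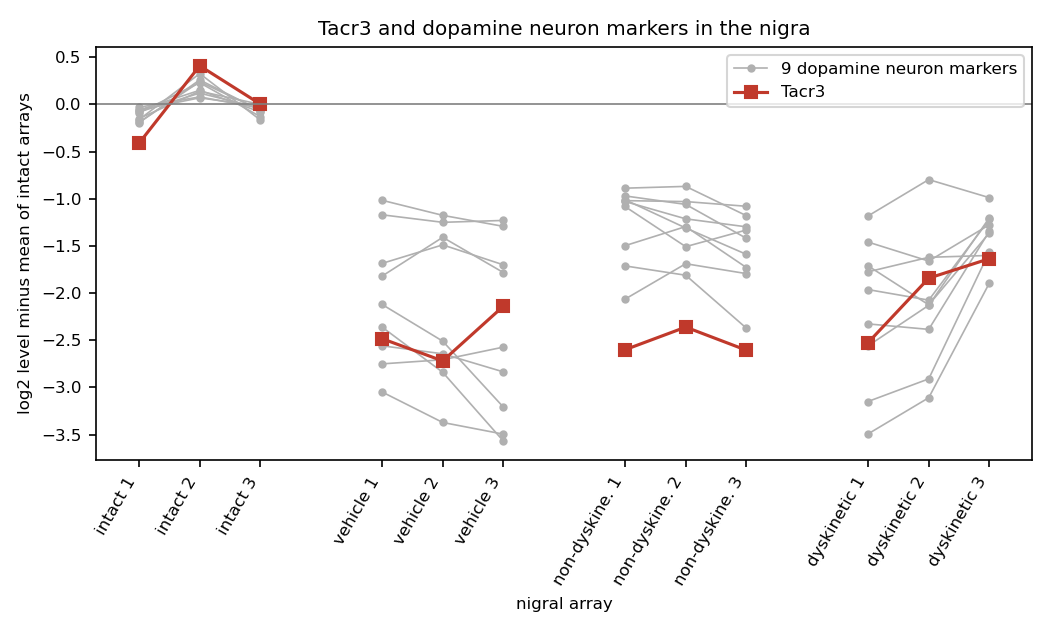
Log2 level of Tacr3 (squares) and of 9 dopamine neuron markers (small circles) on each nigral array, minus the mean of the intact arrays for that gene; lines join the arrays of a group and imply no order. Tacr3 lies below all 9 markers on the 3 non-dyskinetic arrays and among them on the vehicle and dyskinetic arrays.

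Nigral Tac3 was higher in dyskinetic and vehicle rats than in intact rats. It read 6.89, 7.07 and 6.67 on the dyskinetic arrays and 6.94, 6.87 and 6.78 on the vehicle arrays. The non-dyskinetic arrays read 6.45, 6.40 and 6.50 and the intact arrays 6.24, 6.37 and 6.10. The intact mean of 6.24 lies under the filter on dim genes (6.4353), and the gene passed it on its mean over all nigral arrays, which the dyskinetic and vehicle groups raise. The first pair of groups lay above the second pair without overlap, and within the second pair the non-dyskinetic arrays lay just above intact. Non-overlap held for 21.3% of all genes in dyskinetic against non-dyskinetic and 10.9% in non-dyskinetic against vehicle nigra. Against intact nigra it held for 40.1% in dyskinetic, 32.7% in vehicle and 23.9% in non-dyskinetic rats. The dyskinetic and vehicle arrays overlapped for Tac3, where 25.7% of all genes had no overlap.

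The difference of Tac3 from intact was 0.64 ± 0.10 in dyskinetic (adjusted p = 0.000882), 0.63 ± 0.10 in vehicle (adjusted p = 0.00123) and 0.22 ± 0.10 in non-dyskinetic nigra (adjusted p = 0.264). With no filter the first pair of adjusted p-values was 0.00104 and 0.00143. Without vehicle arrays 1 and 3 the vehicle difference was 0.64 (adjusted p = 0.0253, in a range of 7.83e-05 to 0.0357 over 15 alternatives). Of the 7 Tac3 probe sets 2 passed in dyskinetic and 2 in vehicle against intact, beside 4.02% and 1.76% of all probe sets. Differences along the gene ran from 0.071 to 1.31 and from -0.0037 to 1.44. The same probe sets passed in both, and they were dim, with intact means of 5.11 and 4.35. The former also passed in non-dyskinetic against intact nigra, at 0.89 (adjusted p = 0.0373). It was 1 of the 7 there, beside 0.659% of all probe sets. The brightest pair, with intact means of 9.03 and 7.997, did not pass. It differed by 0.19 and 0.23 in dyskinetic and by 0.080 and 0.15 in vehicle rats. In dyskinetic and in vehicle against intact nigra, 4 of the 7 had an unadjusted p under 0.05, and 1 of the 7 in non-dyskinetic against intact. For vehicle, 0 of the 7 passed in limma without vehicle arrays 1 and 3 (0.092 to 1.44). Dyskinetic and non-dyskinetic rats differed by 0.43 ± 0.10 (adjusted p = 0.109), and non-dyskinetic and vehicle rats by -0.41 ± 0.10 (adjusted p = 0.28). With the median over probe sets in place of the mean, nigral Tac3 fell under the filter on dim genes and was not tested.

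Nigral Tac1 was 7.36, 7.98 and 7.45 in dyskinetic, 7.10, 7.16 and 6.94 in non-dyskinetic, 8.11, 7.33 and 7.02 in vehicle and 7.00, 6.84 and 6.80 in intact rats. The dyskinetic arrays lay above all non-dyskinetic and intact arrays, as groups did not overlap for 21.3% and 40.1% of all genes. The vehicle arrays spread from just above the highest intact array to above the highest dyskinetic array. Vehicle and intact groups did not overlap for 32.7% of all genes. Tac1 was higher in dyskinetic than in intact rats by 0.72 ± 0.22 (adjusted p = 0.045). This call held in 5 of 15 alternatives, was lost when any 1 of the 6 arrays compared was left out (0.52 to 0.84, adjusted p 0.0583 to 0.158), and with the median over probe sets the difference was 0.14 (adjusted p = 0.555). None of its 7 probe sets passed, and 4 of them had an unadjusted p under 0.05.

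Tac1 in vehicle against intact nigra differed by 0.61 ± 0.22 (adjusted p = 0.0914), which was 0.30 (adjusted p = 0.275) without vehicle array 1 and 0.45 (adjusted p = 0.235) without vehicle arrays 1 and 3. Without vehicle array 3 alone it was 0.84 (adjusted p = 0.0232), in a range of 0.000827 to 0.961 over 16 alternatives. Vehicle array 1, with the highest Tac1 of all nigral arrays, also had the highest Penk (10.08 against 8.03 to 8.93 elsewhere), Adora2a (8.80) and Drd1 (7.999), which mark striatal projection neurons. Without Drd2, the summed level of the 6 projection neuron markers was 11.25 to 11.31 on dyskinetic, 11.38 to 11.40 on non-dyskinetic and 11.48 to 11.58 on intact nigral arrays. This sum thus ran lower in the dyskinetic group, whose Tac1 was higher. Penk went the other way, at 8.66, 8.92 and 8.93 on the dyskinetic arrays, above all non-dyskinetic (8.03 to 8.32) and intact (8.07 to 8.35) arrays. The part of striatal tissue in these punches in the nigral peptide values was not tested.

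Nigral Tacr1 passed in no comparison. It read 7.43, 7.94 and 7.62 in dyskinetic, 7.61, 7.61 and 7.15 in non-dyskinetic, 7.83, 7.57 and 7.49 in vehicle and 7.66, 7.43 and 7.71 in intact rats. All groups overlapped, the 6 differences ran from -0.18 to 0.21, and their 95% intervals together reached from -0.50 to 0.53. No tachykinin gene passed between the lesioned groups in the nigra. There 0.241% of all genes passed in dyskinetic against non-dyskinetic, 2.22% in dyskinetic against vehicle and 0% in non-dyskinetic against vehicle rats, in limma. At an unadjusted p under 0.05, 3, 0 and 1 of the 4 genes passed in these comparisons, and 14.6%, 20.9% and 8.03% of all genes. Without vehicle arrays 1 and 3, 0 of the 4 genes passed in limma against vehicle in either group.

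**Figure D5:**
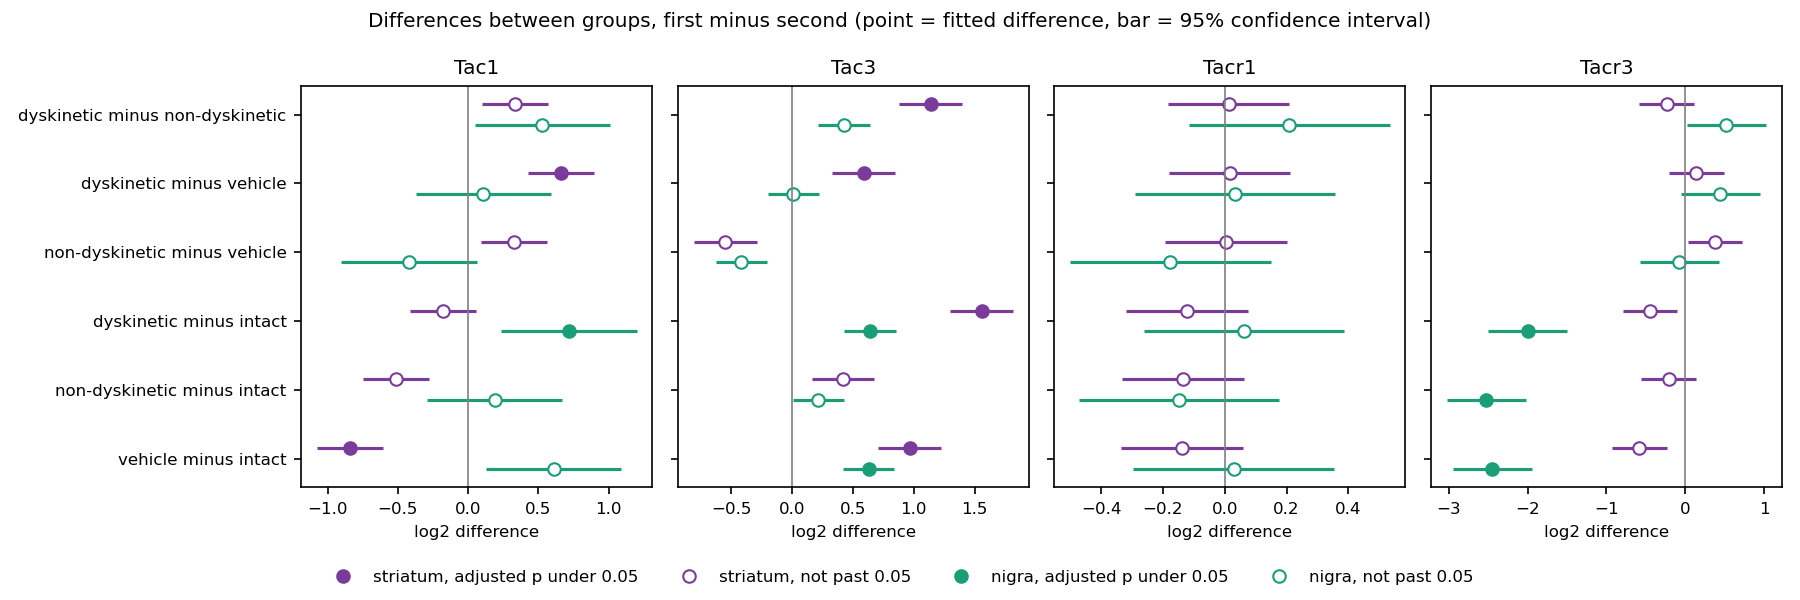
Fitted log2 difference between groups, first minus second, for each gene, with its 95% confidence interval, in striatum (purple) and nigra (green); filled points have an adjusted p under 0.05, and each gene has its own axis. Tac3 has 4 filled striatal and 2 filled nigral points, Tacr3 3 filled nigral points from -2.52 to -2.00, and Tacr1 none.

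Whether a difference between groups was itself different in the 2 tissues was fitted on the 24 arrays together, treating each rat as a random block. For dyskinetic against non-dyskinetic rats, Tac3 differed more in striatum by 0.72 ± 0.15 (adjusted p = 0.0142), and 1 of the 4 genes passed beside 1.47% of genes. This call was lost without striatal dyskinetic array 2 (0.65, adjusted p = 0.0794), nigral dyskinetic array 3 (0.62, adjusted p = 0.0575) or nigral non-dyskinetic array 3 (0.67, adjusted p = 0.0506), in a range of 0.00551 to 0.0794 over 14 alternatives. For dyskinetic against vehicle rats Tac3 differed by 0.58 ± 0.15 (adjusted p = 0.0348), as 1 of the 4 genes beside 3.24%. This call held in 5 of 15 alternatives (adjusted p from 0.0211 to 0.243), and without nigral vehicle arrays 1 and 3 the value was 0.56 (adjusted p = 0.243).

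For dyskinetic against intact rats 3 of the 4 genes passed, beside 12.6%. Tac3 rose more in striatum by 0.91 ± 0.15 (adjusted p = 0.00031). Tac1 had a striatal minus nigral difference of -0.92 ± 0.25 (adjusted p = 0.0177), which without nigral dyskinetic array 2 was -0.72 (adjusted p = 0.0706, in a range of 0.0141 to 0.198 over 15 alternatives). Tacr3 had 1.57 ± 0.29 (adjusted p = 0.000619), since its fall was larger in nigra. Tacr3 also differed between tissues for non-dyskinetic against intact (2.34 ± 0.28, adjusted p = 4.12e-05, 1 of the 4 genes beside 2.91%) and for vehicle against intact rats (1.89 ± 0.28, adjusted p = 0.000122). In the last comparison Tac1 passed too, at -1.46 ± 0.25 (adjusted p = 0.000505). It was lower in vehicle than in intact striatum, with a positive nigral difference that did not pass. So 2 of the 4 genes passed there, beside 5.72%, and both passed with any single array left out (Tacr3 from 1.66 to 2.07, Tac1 from -1.69 to -1.15). Without both nigral vehicle arrays 1 and 3 they were 2.14 (adjusted p = 0.000591) and -1.29 (adjusted p = 0.000766). Between non-dyskinetic and vehicle rats none of the 4 passed, beside 0.033% of genes, although Tac1 had an unadjusted p of 0.00581.

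Tac4, the remaining peptide gene of the family, was dim in both tissues (6.21 to 6.55 in striatum and 6.37 to 6.68 in nigra) and passed in none of the 12 comparisons. Some genes for the making and breakdown of neuropeptides passed in both tissues. In dyskinetic against non-dyskinetic striatum, 2 of 11 rose, 1 fell and 8 did not pass, beside 5.26% of all genes, with a median of 0.14 against -0.03 for all genes. Scg2, a secretory granule protein, rose by 1.24 ± 0.11 (adjusted p = 2.02e-05) and Pcsk1, a convertase that cuts peptide precursors, by 0.74 ± 0.10 (adjusted p = 0.000447). Mme, the membrane enzyme neprilysin that degrades substance P, was lower, at -0.58 ± 0.13 (adjusted p = 0.0129). Against intact rats 3 rose and 2 fell, among them Ace, a peptidase (-0.59), beside 10.3% of all genes. Pcsk1 was also higher in vehicle than in intact striatum (0.74, adjusted p = 0.00204), as the 1 gene of the 11 that passed, beside 0.442% of all genes. In the nigra 4 of the 11 were lower and 0 higher in each lesioned group against intact, beside 16.1% of all genes in dyskinetic, 4.7% in non-dyskinetic and 12.8% in vehicle rats. Chgb, a secretory granule protein, differed by -0.68, -0.57 and -0.68 and Pcsk1 by -0.51, -0.69 and -0.76. Without vehicle arrays 1 and 3, 2 of the 11 were lower in vehicle rats, beside 4.36% of all genes.

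Markers of the direct pathway, where Tac1 is made, did not all follow it. In vehicle against intact striatum, where 0.442% of all genes passed, 2 of 8 were lower with Tac1, Drd1 at -0.50 and Slc35d3 at -0.40. The indirect-pathway peptide gene Penk was higher by 0.39 as 1 of 4. In dyskinetic against vehicle rats 3 of 8 rose, namely Pdyn, the dynorphin gene (2.14), Drd1 (0.35) and Slc35d3 (0.28), beside 5.18% of all genes. Between dyskinetic and non-dyskinetic rats Pdyn alone of the 8 passed, at 1.66, beside 5.26% of all genes. Immediate early genes, which respond to neuronal activity, rose in 8 of 11 cases in that comparison, with a median of 1.18, Nr4a2 at 3.45 and Fosb at 1.96. Against vehicle and against intact all 11 rose in dyskinetic rats, with medians of 1.40 and 1.42, beside 5.18% and 10.3% of all genes.

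Few genes of receptor signalling through Gq passed in striatum, and several fell in nigra with Tacr3. In dyskinetic against non-dyskinetic striatum 1 of 12 passed, Plcb4, a phospholipase C (0.38), which is near the 5.26% of all genes. Against vehicle and intact 2 of 12 rose, beside 5.18% and 10.3% of all genes. There Rgs2, a brake on Gq signalling, rose as well (0.46 and 0.47). In the nigra 6 of 12 fell in dyskinetic, 4 in non-dyskinetic and 5 in vehicle against intact rats, beside 16.1%, 4.7% and 12.8% of all genes. The medians were -0.25, -0.20 and -0.15. Prkca (protein kinase C alpha) differed by -0.95, -0.61 and -0.56, Itpr1 (the inositol trisphosphate receptor) by -1.34, -0.98 and -0.96, and Plcb4 by -0.84, -0.76 and -0.86. Without vehicle arrays 1 and 3 the median difference of the 12 genes in vehicle against intact rats was -0.32. The dopamine neuron markers fell in the same comparisons.

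Glial markers and immediate early genes were counted in the comparisons in which nigral Tac3 passed. In dyskinetic against intact nigra 2 of 6 astrocyte, 3 of 7 microglial and 2 of 6 oligodendrocyte markers were higher, and 8 of 10 immediate early genes were higher and 1 lower, beside 16.1% of all genes. In vehicle against intact nigra these counts were 2 of 6, 1 of 7 and 1 of 6, and 6 of 10 with 1 lower, beside 12.8% of all genes, so 1 of 7 and 1 of 6 lie near that share. Without vehicle arrays 1 and 3 they were 0 of 6, 1 of 7 and 0 of 6, and 1 of 10 with 1 lower, beside 4.36%. In non-dyskinetic against intact nigra, where Tac3 did not pass, they were 0 of 6, 1 of 7, 0 of 6 and 0 of 10 with 1 lower, beside 4.7%. With all arrays in, the lower gene was Nr4a2, a transcription factor of dopamine neurons, in each. Their part in the Tac3 result was not tested.

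The genes most like each of the 4 over the 12 arrays of a tissue are given as a description, by Pearson r, since arrays of a group share their treatment. For striatal Tac3 they were Mmp9 (0.979), a matrix protease, Nmu (0.967), which encodes the neuropeptide neuromedin U, Mmd (0.958), Pkp2 (0.936) and Nptx1 (0.931). For striatal Tac1 they were the direct-pathway gene Slc35d3 (0.923), Syt4 (0.907) and Chga (0.892), both of secretory vesicles, Nfkbie (0.880) and Eif3d (0.877). With the group means removed, r was 0.57 for Mmp9 with Tac3 and 0.42 for Slc35d3 with Tac1, so that much of the likeness lies between groups.

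For nigral Tacr3 the nearest were Pcdh8 (0.980), Syt5 (0.977), Amotl1 (0.975), Serpinb6a (0.974) and Celf6 (0.972). For nigral Tac1 they were Rasgrp2 (0.906), Penk (0.892), Hectd2 (0.861), Fbxo39 (0.857) and Htr1b (0.851), and within groups r was 0.82 for Rasgrp2 and 0.87 for Penk. These values include vehicle array 1, which had the highest nigral Tac1 and Penk, and were not recalculated without it. For nigral Tac3 they were Pias1 (0.921), Cr1l (0.917), Wac (0.893), Ppp4r3b (0.873) and Erf (0.873). Tacr1 was nearest to Rpl7l1 (0.913), Dus3l (0.909), C17h5orf24 (0.908), Rtfdc1 (0.898) and Csprs (0.897) in striatum and to Yme1l1 (0.896), Papolg (0.872), Lamp5 (0.872), Kcnh5 (0.849) and Ube3a (0.848) in nigra. Striatal Tacr3 was nearest to Polr2f (0.873), Usb1 (0.862), Dok4 (0.856), Zkscan4 (0.852) and Gap43 (0.850).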

How the data were processed

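Log2 values were deposited for 213067 probe sets on 24 arrays. Per the submitters' processing notes, the authors made these log2 values with RMA in oligo 1.34 under R 3.2.3. Whether both tissues were normalised together is not given in the sources used here. Total RNA had an integrity number of at least 7, per the labels' protocols. The platform annotation (2010) names 1 gene for 172924 probe sets, several for 1661 and none for 38482. Of 16633 symbols 12878 were current in RefSeq's gene list for GRCr8, 3700 were updated and 55 kept.

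Probe sets of a gene were averaged (median 8 per gene), giving 16582 genes. The lowest 25% by mean in a tissue were left out. Differences were fitted with limma 3.58.1 (lmFit, eBayes; R 4.3.3) over the 12 arrays of a tissue, 1 mean per group, with Benjamini-Hochberg adjustment over 12436 genes and a two-sided threshold of 0.05. Tissue differences came from 1 fit of the 24 arrays in which each rat was a random block (correlation 0.155), over 12114 genes. Fits were tested on simulated data. No batch is given in the labels, and the labels call arrays of a group biological replicates. The members and gene lists were chosen with earlier results of these data known.

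Genes named are the members, their 5 nearest genes by Pearson r, up to 4 passing genes of a list per comparison, lists of at most 5 genes and the dopamine genes Th, Slc6a3, Slc18a2 and Ddc. Rgs9, Slc17a7 and Drd1 in nigra were added once their levels were known. The sum of 6 projection neuron markers without Drd2 was likewise added after seeing the data, as the full list holds Drd2. Alternatives changed the probe-set summary, filters, normalisation, weights, variance prior, arrays in the fit, replicate block and single arrays, and 1 chosen after seeing the data left out nigral vehicle arrays 1 and 3.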

Additional observations from a re-analysis of the deposited data

Results flagged for a closer look

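The group differences of Tac1, Tac3 and Tacr3 that differed between striatum and nigra in the fit over all 24 arrays are collected here, as striatal minus nigral log2 difference. For Tac3 this was 0.717 in dyskinetic against non-dyskinetic, 0.583 in dyskinetic against vehicle and 0.913 in dyskinetic against intact rats. The Tac3 difference was thus larger in striatum than in nigra in each, and the 3 comparisons share the dyskinetic arrays. In nigra, where Tac3 was dim, it was 0.43 (adjusted p = 0.109), 0.011 (adjusted p = 0.961) and 0.64 (adjusted p = 0.000882) in the same order. The call against non-dyskinetic rats was lost without striatal dyskinetic array 2, nigral dyskinetic array 3 or nigral non-dyskinetic array 3. The value against vehicle did not pass without nigral vehicle arrays 1 and 3 (0.56). For Tac1 it was -0.917 in dyskinetic against intact and -1.46 in vehicle against intact rats, with a negative striatal and a positive nigral difference in both. The striatal -0.18 in dyskinetic rats (adjusted p = 0.34) and the nigral 0.61 in vehicle rats (adjusted p = 0.0914) did not pass. The nigral 0.72 in dyskinetic rats passed, and that call held in 5 of 15 alternatives. With the median over probe sets the -0.917 was -0.43 (adjusted p = 0.198), and it did not pass without nigral dyskinetic array 2. For Tacr3 the striatal minus nigral difference was 1.57 in dyskinetic, 2.34 in non-dyskinetic and 1.89 in vehicle rats against intact, with a larger negative difference in nigra. Groups of 3 arrays are too small for a test for single outlying arrays.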

How the results depend on the processing

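Over 976 recalculated differences of single genes, 909 kept their direction and their side of the threshold. No call was made in the opposite direction under any alternative. The sign of small differences that had not passed turned as follows. Striatal Tacr3 in dyskinetic against non-dyskinetic rats was 0.0079 with the median over probe sets. Striatal Tacr1 in non-dyskinetic against vehicle rats was -0.019 with quantile normalization and -0.024 with median-centred arrays. In nigral dyskinetic against vehicle rats, array weights gave -0.43 for Tac1, -0.11 for Tac3 and -0.16 for Tacr1. The median over probe sets gave 0.054 for nigral Tacr3 in non-dyskinetic against vehicle and -0.32 for nigral Tac1 in non-dyskinetic against intact rats. Leaving out vehicle arrays 1 and 3 gave 0.20 for Tacr3 in non-dyskinetic against vehicle and -0.035 for Tacr1 in vehicle against intact nigra.

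With each array left out in turn, striatal Tacr1 ran from -0.048 to 0.072 (dyskinetic against non-dyskinetic), -0.049 to 0.094 (dyskinetic against vehicle) and -0.061 to 0.081 (non-dyskinetic against vehicle), and striatal Tacr3 from -0.096 to 0.27 (dyskinetic against vehicle). In nigral dyskinetic against vehicle rats Tac1 ran from -0.12 to 0.42, Tac3 from -0.085 to 0.11 and Tacr1 from -0.10 to 0.15. Nigral Tacr3 ran from -0.21 to 0.079 (non-dyskinetic against vehicle), and nigral Tacr1 from -0.075 to 0.18, -0.23 to 0.0069 and -0.072 to 0.097 (dyskinetic, non-dyskinetic and vehicle against intact).

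The number of the 4 genes past the threshold moved in these cases. Array weights gave 2 in dyskinetic against intact striatum, where Tacr3 was added. In dyskinetic against intact nigra and in vehicle against intact nigra it was 1 under the probe-set median and 1 after leaving out the lowest 50% of genes. The latter removes Tac1, Tac3 and Tacr1 from the test, the former Tac3. In dyskinetic against intact nigra, where 3 passed, it was 2 with no filter, with trended and robust variances and with brighter probe sets only. Between tissues it was 0 for dyskinetic against non-dyskinetic and for dyskinetic against vehicle with the median (nigral Tac3 then lies under the filter), 0 for the latter with no animal block, with median-centred arrays and without nigral vehicle arrays 1 and 3, and 1 for dyskinetic against intact with the median. With single arrays left out it ran from 1 to 2 in striatal dyskinetic against non-dyskinetic, vehicle and intact rats, from 0 to 1 in striatal non-dyskinetic against intact rats, from 2 to 3 in vehicle against intact nigra and was 2 for every array left out in dyskinetic against intact nigra, and between tissues from 0 to 1 (dyskinetic against non-dyskinetic and against vehicle) and from 2 to 3 (dyskinetic against intact). The added gene in vehicle against intact nigra was Tac1, without vehicle array 3 and, by array weights, at 1.10. Striatal Tacr3 in vehicle against intact rats passed with array weights (-0.67, adjusted p = 0.0232) and with only the 6 arrays compared (adjusted p = 0.0493), of 14 alternatives with adjusted p up to 0.707. Other causes were not tested.

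Deviations from the group mean of arrays with the same number correlated from -0.27 to 0.38 in striatum and from -0.29 to 0.29 in nigra, and 4 and 5 of 12 arrays correlated best with their own number, so the numbers, which name different rats, do not pair the arrays. With the replicate block, no call of the 4 genes changed. Striatal Tac3 in dyskinetic against non-dyskinetic rats then had 1.14 with adjusted p = 2.13e-05.

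The count of all genes past the threshold moved by over 1.5 times in each of the 12 comparisons, and the shares given as background move with it. In striatum the lowest and highest counts over the settings were 352 and 710 (main 654) for dyskinetic against non-dyskinetic, 381 and 1152 (644) against vehicle, 793 and 1926 (1281) against intact, 1 and 9 (4) and 0 and 7 (6) for non-dyskinetic against vehicle and intact, and 35 and 191 (55) for vehicle against intact. In nigra they were 16 and 104 (30), 36 and 3393 (276), 1443 and 3307 (1996), 0 and 67 (0), 396 and 991 (584) and 941 and 3725 (1589) in the same order of comparisons. Single arrays moved it, as to 293 without striatal dyskinetic array 2 (first comparison), to 25 without striatal vehicle array 2 (vehicle against intact), and in nigra to 1005, 224 and 631 without intact array 2 (dyskinetic, non-dyskinetic and vehicle against intact). The number of arrays limits every call, and the dim probe sets of nigral Tac1 and Tac3 limit theirs.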
